A study of Homo sapiens with 8 samples.

Results

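The accessible chromatin regions of FN1, the gene of fibronectin, were followed in MCF10A cells before and during treatment with transforming growth factor β1 (TGFβ1). FN1 (ENSG00000115414.21) lies on the minus strand of chromosome 2, at chr2:215360440-215436073 in GRCh38, is 75.6 kb long and has 46 exons in its canonical transcript. Regions were chosen by position. The peak lists of the 4 conditions were merged where peaks shared at least 1 bp, and a merged region was kept where its nearest protein-coding transcription start site (TSS) in GENCODE release 44 was that of FN1, or where it lay within 250 kb of the FN1 gene body. This gave 49 of 126658 merged regions. Of these, 41 had FN1 as nearest protein-coding gene, 44 lay within the distance limit and 36 met both criteria. The gene itself was picked with its response in these data known, so its values are given as a description. Position alone does not link a region to the gene it lies near.

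MCF10A is an established, immortalised and non-tumorigenic human mammary epithelial cell line, here of wild-type (WT) genotype in all groups. Cells received solvent (0.1% BSA in PBS) or TGFβ1 at 5 ng/ml for 6, 24 or 72 h, with 2 replicates in each of the 4 conditions, 8 libraries in all; the labels give the solvent libraries as time 0, although a legend of the study describes solvent treatment for 72 h. Chromatin accessibility was measured by ATAC-seq, an assay where a transposase inserts sequencing adapters into open DNA. The deposited lists held peaks called from both replicates of a condition together, 86209 of them for solvent, 107656 for 6 h, 118433 for 24 h and 116720 for 72 h of TGFβ1. Each condition therefore gave 1 value per region with no replicate check, and no test between conditions was made. The study's methods give a planned number of reads per sample, but the number of filtered reads behind each list is not given in the sources used here, so a peak missing from a list had not passed the peak caller's limits, which does not show that the site was closed. Of 8 epithelial genes checked, 7 had a promoter peak in solvent, KRT5, KRT8, KRT14, KRT18, CDH1, EPCAM and ITGB4, while the canonical TP63 promoter had none. None of 6 promoters of fibroblast, endothelial or blood cell genes had a peak in any list.

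Fibronectin is a large secreted glycoprotein that cells assemble into fibrils of the extracellular matrix, mainly through integrin receptors that bind it at the cell surface. TGFβ1 signals through receptor kinases and SMAD proteins, raises the production of matrix proteins in many cell types, and is a classical inducer of epithelial-mesenchymal transition, in which fibronectin is a widely used mesenchymal marker. Promoters and enhancers in use are generally depleted of nucleosomes, and gain or loss of accessibility at a distance from a gene is read as a sign of candidate regulatory elements. Transcription factors of the JUN and FOS families bind as the dimer AP-1 to the letters TGACTCA, and factors of the CREB and ATF families bind the related cAMP response element (CRE), TGACGTCA.

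The sequences that the results turn on are the FN1 promoter and the summit windows of other regions of the locus. The 250 bases before the FN1 start (RefSeq, GRCh38.p14, chr2:215436069-215436318, minus strand) are shown first because few promoters gained as much signal, and the capitals mark a CRE and a CCAAT box.
FN1 promoter: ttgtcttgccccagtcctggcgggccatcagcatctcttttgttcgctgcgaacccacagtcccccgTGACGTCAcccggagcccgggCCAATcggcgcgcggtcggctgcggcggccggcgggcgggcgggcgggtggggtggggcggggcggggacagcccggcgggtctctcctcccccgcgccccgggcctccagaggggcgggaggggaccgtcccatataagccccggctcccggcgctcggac
The CRE begins 183 bases before the start and the CCAAT box 162 bases before it. For the search a promoter was a window of 300 bases, the 250 before the start and 50 after it, which are not printed. Among 35116 RefSeq promoters, 1.85% held TGACGTCA and 34.6% held CCAAT on either strand. TGACTCA, which 4.95% of promoters held, was not found in the FN1 window. Nor were the SMAD-associated letters AGCCAGACA and GTCTAGAC, which 0.288% and 0.202% of promoters held. The merged promoter region is wider than this window and held AGCCAGACA outside it.

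The next windows are 201 bases of hg38, plus strand, centred on the peak summit, and the capitals mark TGACTCA or its reverse complement. The region 5.6 kb upstream (window chr2:215441620-215441820) is shown for its fold change, the largest of the locus at each time, and holds no AP-1 letters. The region 224.8 kb upstream (window chr2:215660763-215660963) had the largest TGFβ1 signal among regions without a solvent peak. The regions 222.1 kb upstream (window chr2:215658033-215658233) and 199.9 kb upstream (window chr2:215635873-215636073) appeared with it. The region 173.1 kb upstream (window chr2:215609119-215609319) was already open in solvent. The region 298.1 kb downstream (window chr2:215137851-215138051), which is the ABCA12 promoter region, holds AP-1 letters but did not gain signal.
5.6 kb upstream: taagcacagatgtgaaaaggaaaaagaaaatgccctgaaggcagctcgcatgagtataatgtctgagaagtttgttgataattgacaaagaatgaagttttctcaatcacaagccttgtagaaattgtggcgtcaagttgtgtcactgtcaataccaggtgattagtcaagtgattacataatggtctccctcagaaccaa
224.8 kb upstream: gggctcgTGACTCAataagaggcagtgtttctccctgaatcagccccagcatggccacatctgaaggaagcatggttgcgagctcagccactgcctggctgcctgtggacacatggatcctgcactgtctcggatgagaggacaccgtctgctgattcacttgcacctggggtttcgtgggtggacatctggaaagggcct
222.1 kb upstream: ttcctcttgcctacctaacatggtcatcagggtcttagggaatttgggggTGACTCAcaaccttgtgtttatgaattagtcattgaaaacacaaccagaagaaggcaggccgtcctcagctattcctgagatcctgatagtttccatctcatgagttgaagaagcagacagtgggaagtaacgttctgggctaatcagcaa
199.9 kb upstream: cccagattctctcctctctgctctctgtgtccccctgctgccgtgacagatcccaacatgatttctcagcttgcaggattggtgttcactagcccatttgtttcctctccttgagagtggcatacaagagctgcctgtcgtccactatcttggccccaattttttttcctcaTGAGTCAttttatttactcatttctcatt
173.1 kb upstream: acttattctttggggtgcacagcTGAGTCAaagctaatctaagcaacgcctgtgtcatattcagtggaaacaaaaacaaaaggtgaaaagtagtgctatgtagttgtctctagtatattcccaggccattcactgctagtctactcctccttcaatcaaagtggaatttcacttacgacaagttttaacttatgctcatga
298.1 kb downstream: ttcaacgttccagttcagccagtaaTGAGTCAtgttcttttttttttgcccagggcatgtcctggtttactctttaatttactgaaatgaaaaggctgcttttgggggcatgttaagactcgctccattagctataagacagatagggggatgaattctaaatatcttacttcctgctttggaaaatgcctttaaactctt
In these windows the first AP-1 base lay between 93 bases before and 72 bases after the summit. Regions are named by the distance from their summit to the FN1 start, upstream or downstream in the direction of FN1 transcription.

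The value of a region was the area under the curve (AUC) of its peaks, as Genrich computes it from pileup significance, summed over the region in each list. To allow for general differences between lists, the values of each TGFβ1 list were divided by a factor, 1.36 at 6 h, 1.30 at 24 h and 1.19 at 72 h, obtained from the median ratio to solvent at merged regions within 3 kb of any TSS. Values called deposited are unscaled, and all log2 ratios and fold changes are of scaled AUC over solvent.

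The FN1 promoter region (chr2:215435589-215437001) contains the first exon and reaches into the divergent transcript FN1-DT. Its deposited AUC of 882 in the solvent list became 2782 after 6 h, 3956 after 24 h and 4268 after 72 h. Scaled, the TGFβ1 values were 2048, 3041 and 3597, so that the promoter stood 2.32-fold, 3.45-fold and 4.08-fold above solvent. The value rose at each step, most between solvent and 6 h. Much of the gain in area came with a wider peak, which covered 470 bp in solvent and 1219, 1251 and 1413 bp under TGFβ1. Deposited AUC per base of peak, 1.88 without TGFβ1, was 2.28, 3.16 and 3.02 at the successive times, and on a scaled per-base measure the log2 ratio was −0.015, then 0.50 and 0.51. The −log10 p at the summit, a value for a single base, was 8.43, 10.8, 11.5 and 11.7 in the same order.

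Among all protein-coding promoters the FN1 promoter went from a weak to an average peak. In solvent its deposited AUC of 882 exceeded only 8.93% of 12536 promoters with a peak, whose median was 3162. At 6, 24 and 72 h it exceeded 28.8%, 51.8% and 63.7% of promoters. A 2-fold rise was rare at promoters, being reached by 0.375% at 6 h, 0.687% at 24 h and 0.657% at 72 h. Ratios above that of FN1 were found at 28, 10 and 3 protein-coding promoters of 12532, 12516 and 12484 with a peak in both lists.

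Across the locus more regions had a peak under TGFβ1 than in solvent, and loss of a solvent peak was rare, as it was among all regions. The 49 regions had 23 peaks with solvent, and 32, 36 and 48 after 6, 24 and 72 h of TGFβ1. Regions with a peak under TGFβ1 and none in solvent numbered 9 of 32 at 6 h, or 28.1%, where the share among all merged regions was 22.9%. They numbered 14 of 37 at 24 h, or 37.8%, with a background of 29.8%, and 25 of 48 at 72 h, or 52.1%, with a background of 29.3%. A solvent peak was missing at 24 h in 1 region and at 6 and 72 h in none, against 1.31%, 0.551% and 2.43% of all regions. The solvent list was the shortest. With all lists taken at its length 36 regions were left, and those without a solvent peak numbered 8 at 24 h and 13 at 72 h. The share among all merged regions was not computed at that length, so these counts have no background.

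Of the regions with a peak both in solvent and under TGFβ1, 2 of 23 reached a 2-fold higher value at 6 h, 3 of 22 at 24 h and 7 of 23 at 72 h. The corresponding shares of all regions were 3.45%, 8.37% and 10.5%. These counts depended on the measure, being 0 at each time by −log10 p at the summit. Without scaling 8 regions reached 2-fold at 24 h, and with an AUC of at least 400 in both lists 3 did so at 72 h. None was 2-fold lower at any time (background 0.215%, 0.935% and 1.23%). The median log2 ratio of the locus rose from 0.28 through 0.54 to 0.62 over the 3 times, where that of all distal regions, those beyond 3 kb of a TSS, was 0.12, 0.23 and 0.27.

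**Figure D1:**
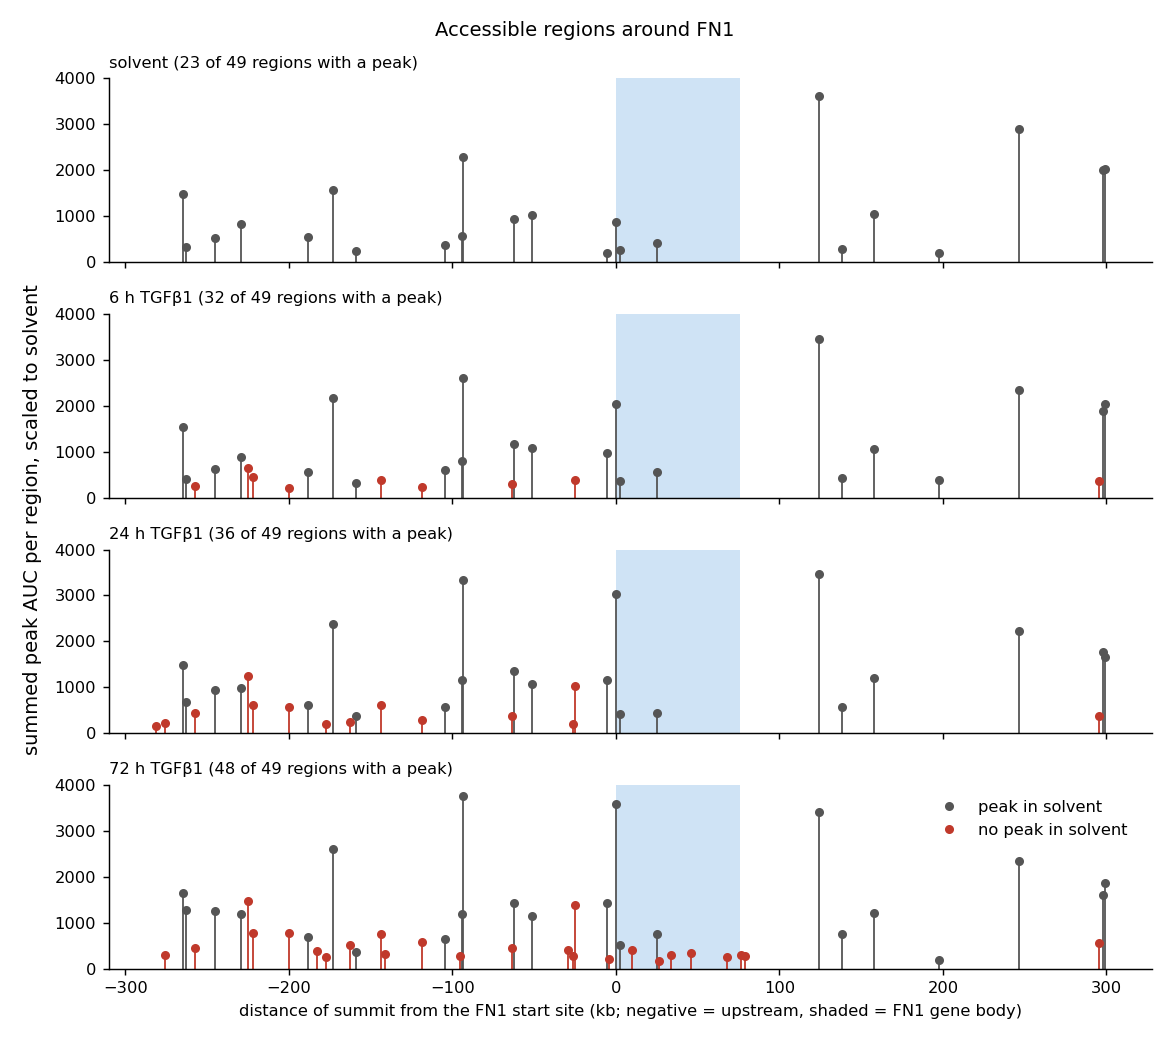
Scaled AUC of the 49 regions (vertical axis) against the distance of each summit from the FN1 start in kb, negative upstream, with 1 panel per condition, the gene body shaded and regions without a solvent peak in red. Red regions accumulate upstream from 6 h and in the gene body at 72 h, while regions beyond the far end of the gene keep similar heights.

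Upstream of the promoter lay 31 regions, of which 13 had a peak in all lists, and each of these 13 was above its solvent value at all 3 times. Of all distal regions with a peak in both lists, 65.3%, 71.0% and 73.3% were above solvent at 6, 24 and 72 h. Some of the 13 upstream regions were only narrowly above. When the lists were scaled by all regions, 11, 11 and 13 of the 13 were above solvent in order of time. Their median log2 ratio was 0.28, 0.60 and 0.72 in order of time. The region 5.6 kb upstream (chr2:215441337-215442261) is the nearest of them to the promoter. Its scaled AUC was 203 in solvent, just above the list's lower limit of 200, then 975, 1168 and 1430, which is 4.80-fold, 5.75-fold and 7.04-fold above solvent. Its deposited AUC per base was 0.687, 1.58, 1.68 and 1.89 in the same order, so here the height rose along with the width.

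The 2 strongest upstream regions in solvent gained moderately. The region 93.5 kb upstream (chr2:215528568-215529719) had a scaled AUC of 2281, 2605, 3335 and 3758 from solvent to 72 h, and its log2 ratio at 72 h was 0.72. The region 173.1 kb upstream (chr2:215609043-215609786), within the long non-coding gene ENSG00000237525, went from 1564 to 2160, 2369 and 2607, with 0.74 at 72 h. The region 94.3 kb upstream (chr2:215530145-215530562), a close neighbour of the first, changed more than both and measured 562, 802, 1157 and 1203. It was 2.06-fold above solvent at 24 h and 2.14-fold at 72 h, so adjacent regions of the same cluster differed in response.

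Late gains were found at the far upstream end, inside the non-coding genes LINC00607 and ENSG00000237525. The region 262.7 kb upstream (chr2:215698571-215699105) had a scaled AUC of 337, 403, 672 and 1279, a fold change that went from 1.20 at 6 h to 3.79 at 72 h. The region 245.2 kb upstream (chr2:215680949-215681569) measured 520, 630, 935 and 1259, or 2.42-fold at 72 h. The region 265.0 kb upstream (chr2:215700564-215701265), next to the first of these, stayed near its solvent value, with 1476, 1538, 1489 and 1647. The region 62.5 kb upstream (chr2:215498407-215498825) lay in between, with 941, 1162, 1355 and 1442. The other upstream regions with a peak in all lists lay 51.1, 104.8, 158.9, 188.5 and 229.0 kb from the start and had log2 ratios between 0.17 and 0.84 at 72 h.

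Regions absent from the solvent list fell into an early and a late set. The early set of 9 had a peak at 6, 24 and 72 h, which is 18.4% of the locus and 14.3% of all merged regions. In 8 of the 9 the scaled AUC rose from 6 to 24 and again to 72 h, and in 7 the deposited AUC did, with no background share given. The median scaled AUC of the set was 374, 581 and 763. Its strongest member, 224.8 kb upstream (chr2:215660643-215661206), overlaps a TSS of LINC00607 and had a scaled AUC of 638, 1242 and 1471. The region 24.8 kb upstream (chr2:215460672-215461196) started lower, at 379, and reached 1032 and 1378. By 72 h these 2 were above the median of the regions that had been open in all lists, 1269.

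Other early regions were weaker. The region 222.1 kb upstream (chr2:215657963-215658261) measured 456, 607 and 786, and that 199.9 kb upstream (chr2:215635799-215636139) 215, 581 and 773. The region 143.9 kb upstream (chr2:215579788-215580187) measured 381, 605 and 763. The region 118.8 kb upstream (chr2:215554732-215555078) differed in time course, with 223 and 278 followed by 583 at 72 h. The regions 63.4 and 257.6 kb upstream ended at 455 and 447. The region 295.6 kb downstream, near the ABCA12 start, was the only early region outside the upstream side, with 374, 365 and 565.

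A further 4 upstream regions had a peak at 24 and 72 h, at 26.2, 162.5, 177.4 and 275.5 kb, and each had a larger AUC at 72 h than at 24 h. The region 162.5 kb upstream changed most, from 235 to 511, and the others ended between 253 and 308. The remaining region with a single TGFβ1 list before 72 h lay 281.1 kb upstream and had a deposited AUC of 208 at 24 h, close to the lower limit of the lists.

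**Figure D2:**
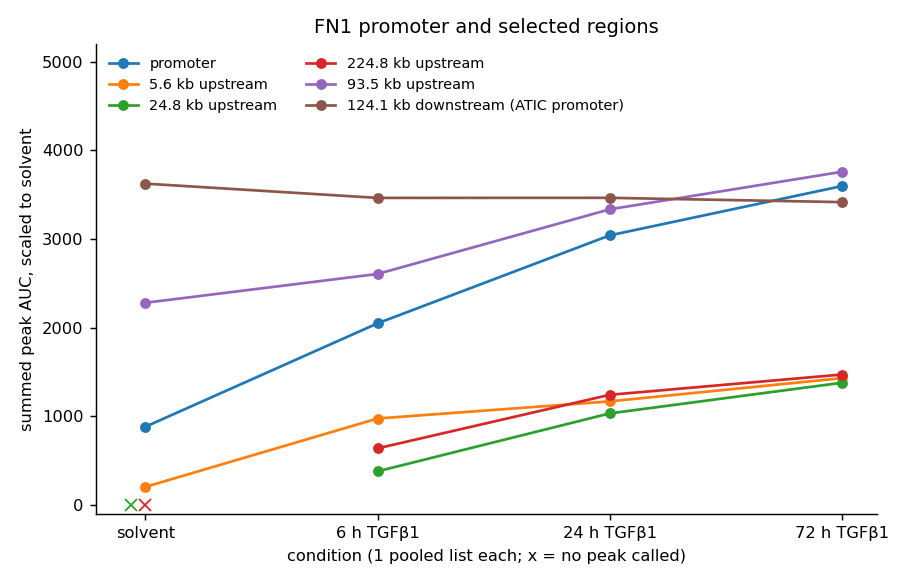
Scaled AUC in solvent and at 6, 24 and 72 h for the promoter, 4 upstream regions and the ATIC promoter, 1 line per region and no error since each condition has 1 value; a cross at 0 marks a region without a peak. The promoter climbs from 882 to 3597, the region 224.8 kb upstream appears at 638 and reaches 1471, and the ATIC promoter goes from 3624 to 3416.

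A peak at 72 h alone was found in 12 of the 49 regions, or 24.5%, whereas 4.61% of all merged regions had this pattern. All 12 were weak, with a deposited AUC from 206 to 492 and a median of 357, so most lay within 2-fold of the lower limit of 200. The gene body held 5 of them, in exon 7 (10.1 kb downstream of the start, AUC 490), exon 14 (26.1 kb, 206), intron 20 (33.9 kb, 344), intron 26 (46.2 kb, 395) and exon 42 (68.2 kb, 313). Just beyond the end of the gene lay 2 more, 76.7 and 78.7 kb from the start, with 369 and 326. The upstream side had 5, at 4.1, 29.4, 95.5, 141.5 and 183.1 kb, with 250, 492, 337, 379 and 457.

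Few peaks were called in the FN1 body before 72 h. Apart from the promoter it held 7 regions, of which 2 had a peak in all lists. The region in intron 2 (chr2:215433679-215434114, 2.2 kb downstream) had a scaled AUC of 258, 356, 428 and 523, and that in intron 13 (chr2:215410576-215411258, 25.0 kb downstream) of 423, 562, 438 and 761. The first rose at each step, and the second fell back at 24 h. Of 55437 regions inside the body of their nearest protein-coding gene, canonical start sites left out, 4.35% had a peak at 72 h alone. Among 2416 genes with at least 7 such regions, 16 besides FN1 had 5 or more of this kind, and the median gene had 0.

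Beyond the 3′ end of FN1 the picture differed. This side held 10 regions, of which 7 had a solvent peak, and their median log2 ratio was 0.0022, −0.12 (6 regions with a peak at 24 h) and −0.12. The promoter of ATIC, an enzyme of purine synthesis (chr2:215311485-215312779), had a scaled AUC of 3624, 3464, 3465 and 3416, nearly the same in all conditions. By ABCA12, a lipid transporter of keratinocytes, the promoter region (chr2:215137812-215138835) measured 2001, 1881, 1766 and 1605 and the region beside it (299.1 kb downstream) 2029, 2032, 1660 and 1867. The region 246.5 kb downstream measured 2890, 2341, 2224 and 2348, and the region 157.9 kb downstream 1049, 1051, 1212 and 1208.

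The exception on this side was the region 138.2 kb downstream (chr2:215297769-215298088), 13868 bp from the ATIC start, which measured 290, 424, 570 and 766 and was 2.64-fold above solvent at 72 h. The region 197.4 kb downstream had 202 with solvent and 379 after 6 h, then no peak, then 181, and was the region whose solvent peak was missing at 24 h. When the 41 regions nearest to FN1 were taken alone, all 16 with a solvent peak stood above solvent at every time under the main scaling, with median log2 ratios of 0.36, 0.60 and 0.79. Of all regions with a peak in both lists, 59.1%, 62.5% and 63.9% were above solvent at 6, 24 and 72 h.

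At the edges of the choice of regions, the last one inside on the upstream side was the weak peak 281.1 kb upstream, and the first one outside, 292.2 kb from the gene and nearest to MREG, had a deposited AUC of 1412, 1648, 1779 and 2531. On the other side the last region inside was that 299.1 kb downstream of the start, and the first outside, 252.4 kb from the gene, had 514 in solvent and 560 at 6 h with no peak later.

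AP-1 letters (TGACTCA, both strands, within 100 bp of the summit) were present in 18 of the 49 regions, or 36.7% (95% Wilson interval 24.7% to 50.7%, which covers counting error only). The share was 32.3% in all merged regions and 37.5% in distal ones, so the locus as a whole held them about as often. They were found in 5 of the 9 early regions, or 55.6% (Wilson interval 26.7% to 81.1%), against 41.3% of all distal regions with a peak at 6, 24 and 72 h and none in solvent. This background is distal only. The early regions 143.9, 222.1 and 224.8 kb upstream and 295.6 kb downstream lay within 3 kb of a TSS. AP-1 letters were found in 2 of the 12 regions seen at 72 h alone, or 16.7% (4.70% to 44.8%), against 37.5% of all regions of this kind. Among regions with a solvent peak, the median log2 ratio at 72 h was 0.74 in the 9 with AP-1 letters and 0.26 in the 14 without. These sets differed in position. Those without included the regions 124.1, 157.9, 197.4, 246.5 and 299.1 kb downstream, between −0.30 and 0.20. Those with the letters included only the regions 138.2 and 298.1 kb downstream beyond the 3′ end. Among upstream regions, those with AP-1 letters lay between 0.54 and 0.84 at 72 h, and those without between 0.16 and 2.81. Whether AP-1 letters went with a larger gain at a like position was not tested. The largest ratios, at the promoter and 5.6 kb upstream, belonged to regions without them.

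The letters TGTGGT, bound by RUNX factors, were in 15 of the 49 regions, or 30.6% (Wilson interval 19.5% to 44.5%), against 16.8% of all merged regions. The share was 18.7% in distal regions and 26.3% in all regions seen at 72 h alone. Several motifs were searched, and no difference from background was tested. CCAAT was in 14 of the 49 regions, or 28.6% against 23.6% of all merged regions. CATTCC, bound by TEAD factors, was in 6, or 12.2% against 15.9%. The E-box CACCTG, which SNAIL and ZEB proteins bind, was in 5, or 10.2% against 17.9%. The CRE was in 1, the promoter, or 2.04% against 0.520%. AGCCAGACA and GTCTAGAC were in no summit window, and also few of all merged regions held them there, 0.496% and 0.295%. Each was in 2 of the whole regions, or 4.08%, against 1.12% and 0.586% of all merged regions. AGCCAGACA was in the promoter region and that 24.8 kb upstream, and GTCTAGAC in those 29.4 and 162.5 kb upstream. These are matches of letters in a window and no measure of binding.

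Summed over the 41 regions nearest to FN1, scaled AUC exceeded that of solvent by a log2 ratio of 0.65, 1.07 and 1.50 in order of time. These sums grew with the number of called peaks, 16 in solvent and 24, 29 and 40 under TGFβ1, which covered 5979, 10751, 12688 and 18519 bp. The mean scaled AUC per covered base was 2.08 in solvent and 1.82, 2.06 and 1.90 under TGFβ1, and so was not higher. Over the 16 regions with a solvent peak alone, the log2 ratio of the sums was 0.42, 0.68 and 0.92. FN1 was set beside the 3990 genes with at least 10 assigned regions. It had 24 regions with a peak at 72 h and none in solvent, where the median gene had 5 and 44 others had as many or more. It had 12 regions seen at 72 h alone, where the median was 1 and 1 other gene had as many or more. Such counts can rise with the number of regions assigned to a gene, 41 for FN1. Of the genes with at least 10 assigned regions, those whose 3 summed ratios over all called regions lay closest to FN1 by Euclidean distance were RFTN1 (distance 0.060), C8orf34 (0.091), FAR2 (0.105), PDHA2 (0.118) and MOXD1 (0.120). A region was given to the nearest protein-coding TSS whether or not it acts on that gene.

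The promoters of 20 genes of fibronectin receptors, matrix partners and matrix-modifying enzymes moved little beside that of FN1. A promoter peak in solvent was found in 17, and none in any list for ITGA8, TNS1 and DPP4. FBN1, which encodes the microfibril protein fibrillin, was the only one 2-fold higher, at 24 and 72 h, and its deposited promoter AUC was 579, 1528, 2717 and 2588, with log2 ratios of 0.96, 1.85 and 1.91. None was 2-fold lower, and the median log2 ratio of the 17 was 0.015, 0.015 and 0.076. The fibronectin receptor subunit gene ITGA5 had 0.49, 0.39 and 0.62, its partner ITGB1 0.0018, 0.0034 and 0.026, and ITGB3 0.37, 0.53 and 0.58. TGM2, a transglutaminase that crosslinks matrix proteins, had 0.34, 0.18 and 0.47.

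Among 10 protein-coding genes with a TSS within 1 Mb of FN1, the median promoter log2 ratio was −0.065, −0.055 and −0.14. PECR and TMEM169 share a promoter region, whose ratio entered the median for each of them. MARCHF4 alone was 2-fold higher, with a log2 ratio of 1.21 at 72 h from a weak solvent peak of 285, and none was 2-fold lower. The other neighbours lay between −0.32 and −0.021 at 72 h.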

How the data were processed

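ATAC-seq peak lists of 4 conditions were analysed, with 2 replicates each. Per the study's methods and the submitters' processing notes, the authors used Trimmomatic 0.38 for trimming, Bowtie2 2.4.5 for mapping to GRCh38, Picard for duplicates, SAMtools 1.4.1 for filtering and Genrich 0.5 to call peaks from both replicates together in ATAC-seq mode, with an AUC above 200. The deposited signal is the AUC of each peak, the deposited −log10 p refers to its summit, and the summit offset came from the same lists. The condition of each list was read from its name. No counts per replicate were used, so intervals between conditions could not be formed. A wider or longer list raises both the number of peaks and their area.

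Peaks on 23 chromosomes were merged, scaled and compared with Python 3.11.15, numpy 2.4.6, pandas 2.3.3 and matplotlib 3.10.9. The calculation was tested on simulated data, where 100% of 200 regions raised 4-fold among 86209 were recovered. The simulated rise was well above the 2-fold limit and was not tied to peak width or calling, so full recovery checks the code alone. Values in all lists were named for the promoter, shared regions within 50 kb of the gene, the 10 largest at 72 h, the 5 largest and 5 smallest ratios, the 10 largest without a solvent peak and any lost at 72 h, of which there were none. Other regions are given by range or in passing. Summit windows that overlap untranslated regions were not printed. The regions, gene lists and motifs were chosen with earlier results of these data known. Alternatives changed the AUC limit, overlap, scaling, value, choice of regions, list length and motif window.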

Additional observations from a re-analysis of the deposited data

How the results depend on the processing

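No paired analysis was possible because each list pools both replicates, and leaving out a replicate could not be run for the same reason. Of 92 values recomputed, 51 stayed within their limits, 40 moved and 1 reversed. The reversed value was the promoter log2 ratio at 6 h, −0.015 per base of peak against 1.22 by area. The promoter ratio at 6, 24 and 72 h was 0.22, 0.33 and 0.40 by −log10 p at the summit, and 0.50 and 0.51 per base at 24 and 72 h. It was 1.66, 2.17 and 2.27 without scaling, 1.15, 1.66 and 1.88 when scaled by all regions (which shifts every ratio down by 0.064, 0.12 and 0.15), 1.23, 1.81 and 2.06 when scaled by protein-coding starts, 1.24, 1.82 and 2.05 with AUC of at least 400, and 1.21, 1.78 and 2.02 with lists of equal length. Under a 50% overlap the solvent promoter peak was not matched, and the promoter counted as gained. The number of regions 2-fold higher was 0 at all times by −log10 p. With FN1 as nearest of all genes it was 1, 1 and 2. Without scaling it was 4 at 6 h and 8 at 24 h. It was 0 at 6 h per base, 1 at 6 h and 3 at 72 h with AUC of at least 400, 0 at 6 h and 4 at 72 h under 50% overlap, and 5 at 24 h when scaled by protein-coding starts. Regions without a solvent peak numbered 8 at 24 h and 13 at 72 h with lists of equal length, which leave 36 regions. They numbered 0, 0 and 7 with FN1 as nearest of all genes, which leaves 10 regions, of which 20.0% held AP-1 letters. Each of these settings changes the value, the peaks or the regions by its own construction, and what else moved with them was not tested.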
